A study of Homo sapiens with 9 samples.

Results

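The genes described are complement component C3 and 8 further complement genes (CFB, CFI, C4BPA, C1R, C1S, CD46, CD55 and CD59), 9 of the 60448 rows of the count table. They were picked by symbol, for changes in opposite directions in the OPA1 knock-down sets N_28 and N_30, so their own values in these comparisons are a description and carry no test. RNA sequencing covered cells labelled Huh7, a human hepatocellular carcinoma line kept in DMEM, in 9 libraries. The groups are N_30 (OPA1 knock-down, 3 libraries), N_28 (OPA1 knock-down, 3 libraries) and control (3 libraries). The labels state the same lentiviral OPA1 knock-down treatment for all 9 libraries, controls included, and give neither the meaning of the names N_28 and N_30, nor the virus the controls received, nor whether libraries came from separate cultures. The spread behind each p-value is that between these libraries and may be technical.

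Complement is a cascade of blood proteins that marks and lyses microbes, and the liver makes most of them. The classical pathway starts when C1q binds an antibody and the proteases C1r and C1s cut C4 and C2. The alternative pathway starts on C3 itself, with factor B supplying the protease of the enzyme that cuts more C3. Host cells are protected by soluble regulators, such as factor I and C4b-binding protein, and by the membrane proteins CD46, CD55 and CD59. In liver cells C3 and factor B are acute phase genes, which cytokines such as IL-6, IL-1 and interferon-gamma induce.

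OPA1, a GTPase of inner mitochondrial membrane fusion and the target of the knock-down, was lower in both sets. It stood at 64.2, 63.3 and 65.9 CPM (counts scaled to library size, after adjustment by trimmed mean of M values) in N_30, at 53.3, 55.7 and 57.8 CPM in N_28, and at 82.8, 92.9 and 90.5 CPM in control. Depth ran from 16476389 to 22863328 counts per library. On the first principal component of all tested genes (38.4% of the variance), N_28 lay at 27.6 to 30.1 and N_30 at -23.1 to -19.1. Control lay between them, at -10.6 to -5.77. On the second principal component, library 3 of each group stood apart from libraries 1 and 2. The label names a hepatocellular carcinoma line, but the libraries hold little of the transcripts that define hepatocytes. APOB had 0 counts in every library and ALB had at most 10. Whether the cells match the label was not tested. The summed level of 10 hepatocyte markers was 5.48 to 10.4 CPM in N_30, 1.69 to 2.18 CPM in N_28 and 5.16 to 8.17 CPM in control, so it was lower in N_28 along with the C3 values below and overlapped between N_30 and control. The sum rests mainly on transferrin (TF), which averaged 5.21 ± 2.12 CPM in N_30, 0.446 ± 0.334 CPM in N_28 and 4.01 ± 1.19 CPM in control (SD, n = 3 each), while AFP averaged 1.05 ± 0.308 CPM in N_30, 0.905 ± 0.344 CPM in N_28 and 0.726 ± 0.181 CPM in control. The part of these markers in the C3 values was not tested. Of 8 macrophage markers, 6 had at most 3 counts in every library. Summed fibroblast markers reached 713 to 877 CPM in N_30, 602 to 760 CPM in N_28 and 639 to 840 CPM in control, nearly all from COL1A2 and COL1A1, while DCN, LUM and PDGFRA had at most 3 counts. COL1A1, a collagen I chain, had the same order of means as C3, with 127 ± 40.4 CPM in N_30, 50.9 ± 17.6 CPM in N_28 and 71.7 ± 15.1 CPM in control (SD, n = 3 each). It was higher in N_30 than in N_28 (log2 fold change 1.31, adjusted p = 0.00163 in edgeR's quasi-likelihood test), and its part in the C3 values was not tested. COL1A2, the most abundant of these markers, was not called between N_30 and N_28 (0.13, adjusted p = 0.388, same test). COL3A1 had another order of means, with 4.89 CPM in N_30, 3.69 CPM in N_28 and 3.27 CPM in control. Of 5 endothelial markers 1 was high enough to test, PECAM1, which rose in N_28 (0.81, adjusted p = 0.0346, same test) from few counts, a call lost in 6 of 14 alternatives, by DESeq2 and without control replicate 1 or 2 or any 1 of the N_28 libraries. The summed endothelial markers were 1.47 to 1.99 CPM in N_30, 2.14 to 2.70 CPM in N_28 and 1.22 to 1.57 CPM in control. In bulk RNA, fewer cells of a type and less RNA per cell cannot be told apart.

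C3, the central protein of the cascade and the point where its pathways meet, stood at separate levels in the 3 groups. The gene (ENSG00000125730) lies on chromosome 19, 6677704 to 6730562, minus strand, in GENCODE release 29 on GRCh38, which also gives the positions below. C3 stood at 112, 107 and 79.0 CPM in N_30, at 14.6, 10.1 and 15.2 CPM in N_28, and at 29.3, 31.9 and 23.8 CPM in control. Every N_30 library lay above every control library, and every N_28 library lay below them. The group means were 99.4 ± 17.8 CPM in N_30, 13.3 ± 2.82 CPM in N_28 and 28.3 ± 4.14 CPM in control (SD, n = 3 each). The fitted level was 3.51 times that of control in N_30 (log2 fold change 1.81, SE 0.15) and 0.473 times that of control in N_28 (-1.08, SE 0.165). N_30 was 7.41 times N_28. Library 3 was the lowest of its group in N_30 and in control. Compared with the control library that carries the same number, C3 was 3.82, 3.36 and 3.32 times as high in N_30 libraries 1, 2 and 3. In N_28 libraries 1, 2 and 3 these ratios were 0.501, 0.315 and 0.638. No label states that libraries of the same number are paired, so these ratios and those below are a description.

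CFB, which encodes factor B, was close to undetected. The gene (ENSG00000243649) lies on chromosome 6, 31945650 to 31952084, plus strand. It had 4, 0 and 0 counts in N_30, 2, 0 and 1 counts in N_28, and 0, 2 and 1 counts in control. A count of 3, taken as the floor of detection for counting error, equals 0.131 to 0.181 CPM across the libraries. CFB thus lay at or under that floor in every group but for 1 N_30 library, and no direction can be read for it at this depth. Its exons share 2249 bases with an overlapping gene of the same strand (AL645922.1), which had 0 counts.

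C1S and C1R, the proteases of the first classical component, differed in the same order as C3 and by less. They lie tail to tail on chromosome 12, C1S (ENSG00000182326) at 6988259 to 7071032 on the plus strand and C1R (ENSG00000159403) at 7080199 to 7092607 on the minus strand. C1S stood at 21.3, 16.1 and 13.0 CPM in N_30, at 5.25, 5.17 and 6.46 CPM in N_28, and at 13.4, 9.50 and 8.39 CPM in control. N_28 lay below control in every library, while N_30 and control overlapped. C1R stood at 6.02, 5.23 and 4.19 CPM in N_30, at 1.93, 1.59 and 2.49 CPM in N_28, and at 4.06, 2.96 and 2.15 CPM in control. Here N_30 lay above control in every library, and N_28 and control overlapped. In both genes all N_30 libraries lay above all N_28 libraries. The log2 fold change of C1S was 0.68 (SE 0.186) in N_30 and -0.88 (SE 0.204) in N_28. For C1R it was 0.75 (SE 0.227) in N_30 and -0.59 (SE 0.252) in N_28.

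Library 3 was the lowest control library for both proteases. Against the control of the same number, C1S was 1.60, 1.69 and 1.55 times as high in N_30 libraries 1, 2 and 3, and C1R was 1.48, 1.77 and 1.94 times as high. Every N_30 ratio was thus above 1, including those of C1S, whose N_30 and control libraries overlapped. In N_28 libraries 1, 2 and 3 the ratios were 0.393, 0.544 and 0.771 for C1S, and 0.475, 0.538 and 1.16 for C1R. Library 3 of N_28 was thus above control library 3 for C1R. The level of C1S per kb of exon was 2.95 ± 0.234 times that of C1R in N_30, 2.60 ± 0.312 times in N_28 and 3.16 ± 0.343 times in control (SD, n = 3 each), so the ratio of the protease levels overlapped between N_30 and control. C1R shares 672 exon bases with C1RL on the same strand and C1S shares 229 with EMG1, and reads in these stretches may have been counted for either gene.

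C4BPA, the alpha chain of C4b-binding protein, which helps factor I to cut C4b, had the lowest level in N_28 relative to control among the 7 genes of the set that passed the filter on low counts. The gene (ENSG00000123838) lies on chromosome 1, 207104262 to 207144972, plus strand. It had 3.97, 3.02 and 3.38 CPM in N_30, 0.530, 0.110 and 0.655 CPM in N_28, and 3.37, 2.66 and 2.15 CPM in control. All N_28 libraries lay below all others, and N_30 overlapped with control. The fitted level in N_28 was 0.167 times that of control (log2 fold change -2.58, SE 0.354), and in N_30 it was 1.27 times that of control (0.34, SE 0.261). The values of N_28 rest on 11, 2 and 15 counts, against 66, 60 and 76 counts in N_30 and 69, 52 and 48 counts in control.

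CFI, the protease factor I that inactivates C3b and C4b, was detected at few counts. The gene (ENSG00000205403) lies on chromosome 4, 109740694 to 109802179, minus strand. It had 15, 8 and 7 counts in N_30, 0, 1 and 0 counts in N_28, and 12, 4 and 1 counts in control. N_30 lay above N_28 in every library, and N_30 and control overlapped. Summed over libraries, the ratio of N_30 to N_28 was 31.5, with a 95% counting interval of 5.23 to 1280 that covers counting error only. The ratio of N_28 to control was 0.0593 (0.00142 to 0.378), and that of N_30 to control was 1.87 (0.996 to 3.61). Like CFB, it did not pass the filter on low counts. It shares 1562 exon bases with AC126283.2 on the same strand.

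**Figure D1:**
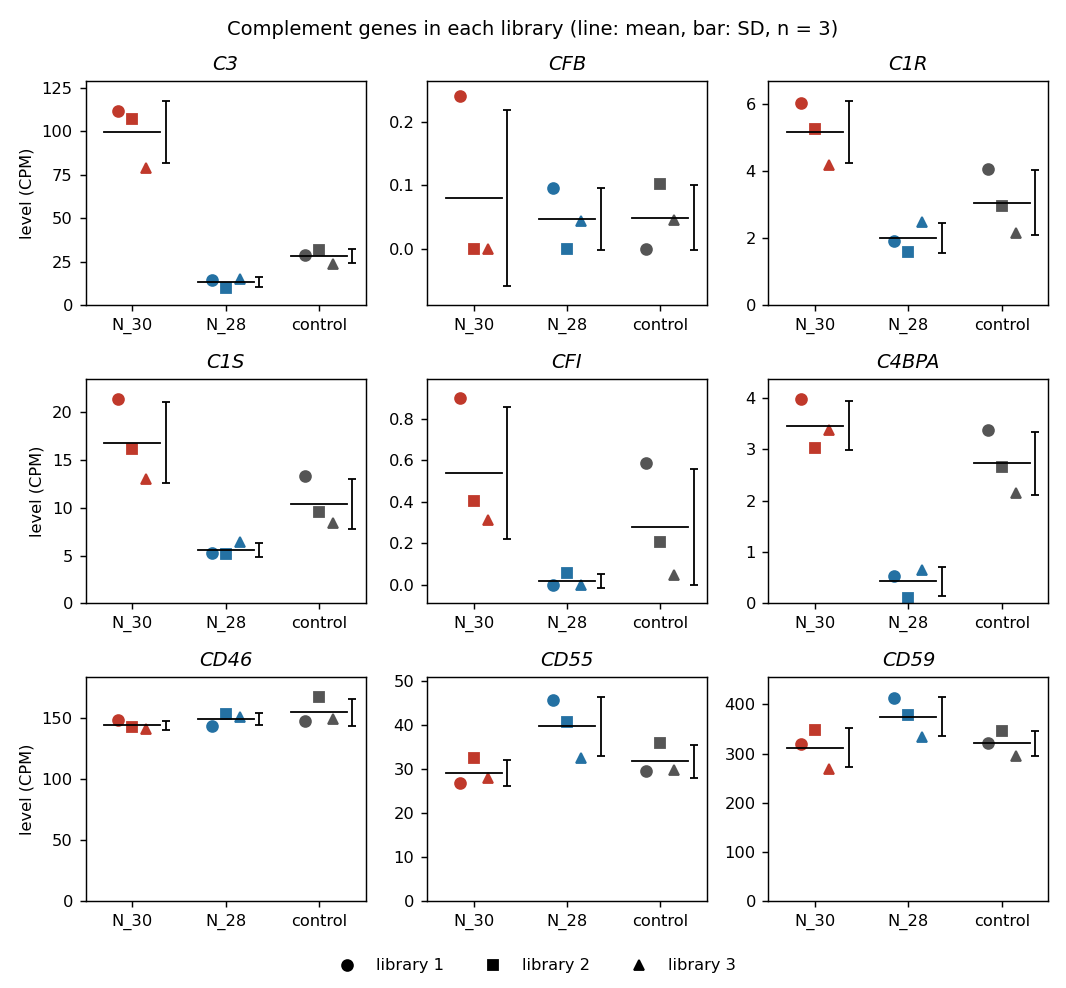
Level in CPM of each of the 9 complement genes in each library, with points for libraries 1 to 3, a line for the group mean and a bar for the SD (n = 3), for N_30, N_28 and control. C3 lies at 79.0 to 112 CPM in N_30, above all other libraries, while the axes of CFB and CFI stay under 1 CPM and CD46 overlaps between groups.

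The membrane regulators differed little, and where they differed the order was the other way round. CD46, the cofactor for cleavage of C3b by factor I on the cell surface, lies on chromosome 1, 207752057 to 207795513, plus strand (ENSG00000117335). It stood at 148, 142 and 141 CPM in N_30, at 144, 153 and 151 CPM in N_28, and at 147, 167 and 149 CPM in control. Its groups overlapped in all comparisons, and its log2 fold change was below 0 in both N_30 (-0.10, SE 0.0604) and N_28 (-0.05, SE 0.0603). CD46 is thus the 1 tested gene of the set without opposite signs.

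CD55 (ENSG00000196352, chromosome 1, 207321376 to 207386804, plus strand) encodes decay-accelerating factor, which takes apart the enzymes that cut C3. It stood at 26.9, 32.6 and 28.0 CPM in N_30, at 45.8, 40.8 and 32.7 CPM in N_28, and at 29.5, 36.1 and 29.8 CPM in control. All N_30 libraries lay below all N_28 libraries, the nearest pair narrowly (32.6 CPM in N_30 and 32.7 CPM in N_28), and both groups overlapped with control. The log2 fold change was -0.12 (SE 0.122) in N_30 and 0.32 (SE 0.12) in N_28.

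CD59 (ENSG00000085063, chromosome 11, 33703010 to 33736491, minus strand) encodes the inhibitor of the membrane attack complex and was the most abundant of the set. It stood at 319, 348 and 270 CPM in N_30, at 412, 380 and 334 CPM in N_28, and at 321, 346 and 295 CPM in control. All groups overlapped, and the log2 fold change was -0.04 (SE 0.096) in N_30 and 0.23 (SE 0.0959) in N_28. Its exons share 629 bases with AL049629.2 on the same strand.

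Counted by the rule applied to all genes (edgeR's quasi-likelihood test, Benjamini-Hochberg adjusted p under 0.05), 7 of the 9 genes were tested, since CFB and CFI were too low. In N_30 against control 1 of them passed, C3, where it was higher, while 0.866% of all 15019 tested genes passed and 0.459% were higher. In a fit with a term for the replicate number (the replicate block) 3 of the 7 passed, against 424 of all tested genes. In N_28 against control 3 passed, all lower (C1S, C3 and C4BPA), against 10.2% of all tested genes that passed and 5.75% that were lower. In N_30 against N_28 5 passed, C3, C4BPA, C1R and C1S higher and CD55 lower, against 18.3% of all tested genes, with 9.38% higher and 8.96% lower. Fold changes had opposite signs in N_30 and N_28 for 6 of the 7, against 48.8% of all tested genes. These counts come from the contrasts that chose the genes, and nothing is read from them. The median log2 fold change of the 7 was 0.34 in N_30, -0.59 in N_28 and 1.33 for N_30 against N_28, and over all tested genes it was within 0.01 of 0 in each. Both knock-down sets were compared with the same 3 control libraries.

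**Figure D2:**
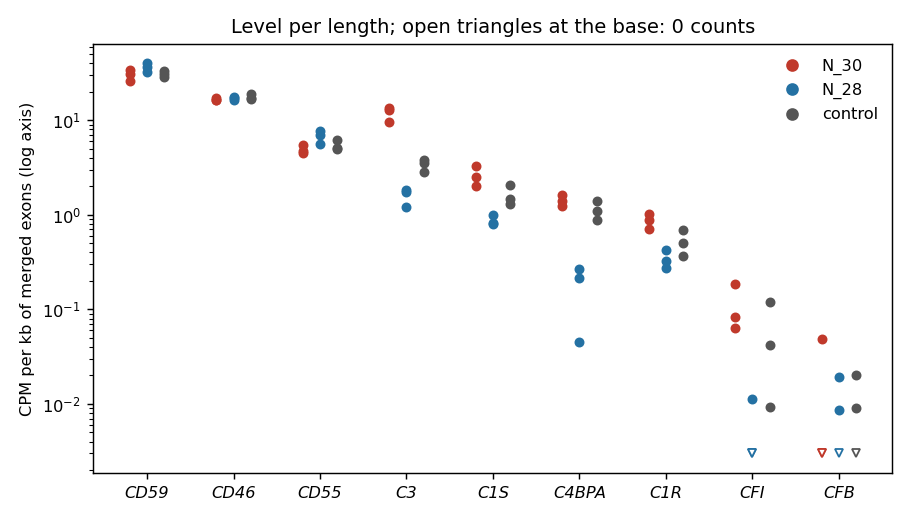
Level of each complement gene per length, in CPM per kb of merged exons on a log axis, for each library of N_30, N_28 and control, with open triangles for 0 counts. C3 averages 11.9 CPM per kb in N_30, above CD55, and 1.60 in N_28, below it, while CD59 and CD46 stay at the top in all groups.

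Per length, the membrane regulators were the highest of the set and the order changed with the level of C3. In CPM per kb of merged exons, CD59 averaged 30.1 ± 3.81 in N_30, 36.2 ± 3.78 in N_28 and 31.0 ± 2.45 in control. CD46 came next, at 16.5 ± 0.442 in N_30, 17.1 ± 0.560 in N_28 and 17.7 ± 1.23 in control. C3 ranked above CD55 in N_30, at 11.9 ± 2.14 CPM per kb against 4.94 ± 0.512 for CD55. It ranked below CD55 in N_28, at 1.60 ± 0.339 against 6.73 ± 1.12, and in control, at 3.40 ± 0.497 against 5.38 ± 0.628 (SD, n = 3 each). The ranges of C3 and CD55 did not overlap in any group. C4BPA lay above C1R in N_30, at 1.42 ± 0.197 against 0.874 ± 0.156, and in control, at 1.12 ± 0.252 against 0.520 ± 0.163, and below it in N_28, at 0.177 ± 0.117 against 0.340 ± 0.0769. CFI and CFB were lowest. Set against CD46 per length, C3 was at 0.721 ± 0.117 in N_30, 0.0939 ± 0.0218 in N_28 and 0.192 ± 0.0217 in control (SD, n = 3 each).

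Promoter sequence was at hand in RefSeq (GRCh38.p14) for 7 of the 9 genes, as the 250 bases before each annotated start. Stretches outside every GENCODE exon are shown for C4BPA and C1R, whose libraries all lay higher in N_30 than in N_28 as those of C3 did, and for CD59, whose libraries overlapped. Capitals mark a match to any of the 4 motifs searched on both strands, and each sequence reads 5′ to 3′ on the strand of the gene.
C4BPA, chr1:207103983-207104232, plus strand: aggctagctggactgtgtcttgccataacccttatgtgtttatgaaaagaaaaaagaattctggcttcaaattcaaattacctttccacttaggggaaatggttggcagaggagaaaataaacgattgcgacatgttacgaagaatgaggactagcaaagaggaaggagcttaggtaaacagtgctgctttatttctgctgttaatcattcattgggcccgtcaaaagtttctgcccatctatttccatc
C1R, chr12:7092608-7092695, minus strand: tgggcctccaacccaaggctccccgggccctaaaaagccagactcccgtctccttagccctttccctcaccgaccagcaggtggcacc
CD59, chr11:33736492-33736729, minus strand: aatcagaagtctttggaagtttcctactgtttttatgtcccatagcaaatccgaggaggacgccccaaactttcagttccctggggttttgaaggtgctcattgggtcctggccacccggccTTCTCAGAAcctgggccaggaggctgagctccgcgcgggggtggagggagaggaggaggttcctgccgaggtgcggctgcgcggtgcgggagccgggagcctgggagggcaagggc

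The motifs were the core of C/EBP sites (TTGCNNAA), paired STAT half-sites (TTCNNNGAA), a repeat of the interferon response type (ISRE) and the NF-kB consensus. Of 35116 promoter windows of this length, 9.05% held the C/EBP core, 6.57% the STAT half-sites, 3.02% the interferon-type repeat and 9.96% the NF-kB consensus. CFB held 3 of the 4, with TTTCTGTTTC 140 to 131 bases, GGGGCCCTCC 112 to 103 bases and TTCCGGGAA 92 to 84 bases before its start. This CFB window lies wholly in GENCODE exons. C1R held the C/EBP core as TTATGCAA on the other strand, 106 to 99 bases before its first listed start, in a stretch that is exon in a longer transcript. CD59 held the STAT half-sites as TTCTCAGAA, 128 to 120 bases before its first listed start. Windows of further starts held TTGCTGAA and TTCCTGGAA in C1R, and TTGCTCAA and TTAGGCAA in CD59. That further window of C1R also lies wholly in GENCODE exons. The windows of C4BPA, CFI, CD46 and CD55 held none of them, which says only that these letters are not in the windows. A match is a description of the sequence.

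The rest of the complement system was mostly silent in these cells. Of 48 other complement genes analysed, 29 had at most 3 counts in every library, among them all C1q chains (C1QA, C1QB and C1QC), the terminal components C6, C7, C8A, C8B and C9, and the lectin MBL2. In all, 12 were high enough to test. In N_30 against control 0 passed by edgeR, against 0.866% of all tested genes, and 0 passed by DESeq2. With the replicate block 1 passed (SERPING1), against 424 of all 15019 tested genes. An unadjusted p under 0.05 was held by 3 in edgeR's test, and the share of all genes at that level was not computed. In N_28 against control 1 rose and 0 fell (8.33%, against 10.2% of all tested genes). In N_30 against N_28 1 was higher and 1 lower (16.7%, against 18.3%). The lower gene, COLEC11, passed the filter on low counts only through N_28, where it was highest. The median log2 fold change of the 12 was 0.09 in N_30 and 0.04 in N_28.

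ITGB2, the beta chain of the complement receptors CR3 and CR4, rose in N_28 by 1.12 on the log2 scale (SE 0.328, adjusted p = 0.0445), with 20, 20 and 39 counts in N_28 libraries against 12 counts in each control library. The call was lost in 7 of 14 alternatives, by DESeq2 and without any 1 of the control libraries, N_28 replicate 2 or 3 or N_30 replicate 2. In N_30 the value of ITGB2 was close to that in N_28, at 1.09 (SE 0.332, adjusted p = 0.183 by edgeR), with 28, 20 and 24 counts. Between N_30 and N_28 it was -0.04 (adjusted p = 0.947, same test). The collectin COLEC11, a recognition molecule of the lectin pathway, had 1, 5 and 3 counts in N_30 and 11, 15 and 25 in N_28. The difference was -2.38 (SE 0.484, adjusted p = 0.00369). COLEC11 reached at most 0.448 CPM in control and 0.252 CPM in N_30, so it passed the filter on low counts only through N_28. Its call is not independent of that entry and is given as a description. C1RL, a protease related to C1R, was higher in N_30 than in N_28 by 0.34 (SE 0.109, adjusted p = 0.0434), and lost the call in 7 of 14 alternatives, without control replicate 3 or any 1 of the N_28 or N_30 libraries.

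Other complement genes with a clear level did not pass in any comparison. The fluid-phase regulator clusterin (CLU) stood at 585, 470 and 541 CPM in N_30, at 428, 477 and 540 CPM in N_28, and at 570, 438 and 449 CPM in control. C1QBP, a mitochondrial protein that also binds C1q, had a log2 fold change of 0.05 (SE 0.0652) in N_30 and 0.12 (SE 0.0651) in N_28. Component C5, the source of the terminal pathway, had 0.14 (SE 0.115) in N_30 and 0.03 (SE 0.115) in N_28, and factor D (CFD), the protease that cuts factor B, had 0.01 (SE 0.147) in N_30 and -0.13 (SE 0.148) in N_28. SERPING1, the inhibitor of C1r and C1s, named after its values were seen, stood at 0.963, 0.906 and 0.891 CPM in N_30, at 0.915, 1.81 and 1.44 CPM in N_28, and at 3.03, 1.48 and 2.02 CPM in control. Its log2 fold change in N_30 was -1.24 (SE 0.315, adjusted p = 0.0973 by edgeR, and 0.0465 with the replicate block), below 0 where C1R and C1S were above it. In N_28 the change of SERPING1 was -0.66 (SE 0.293, adjusted p = 0.188 by edgeR), below 0 as those of C1R and C1S were.

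**Figure D3:**
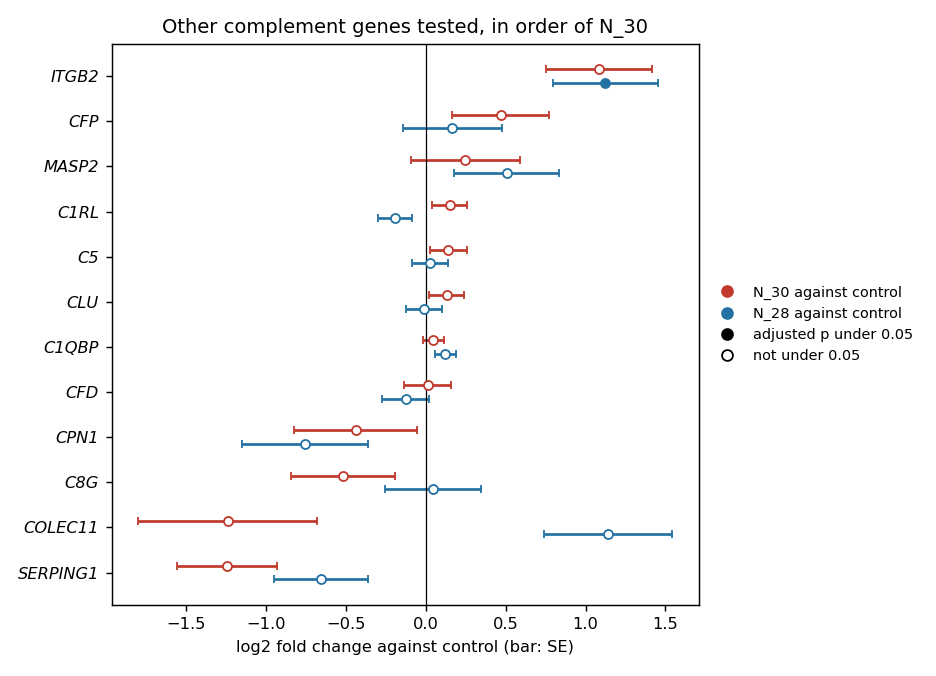
Log2 fold change against control, with SE bars, of the 12 other complement genes that were tested, for N_30 and N_28, with filled points for an adjusted p under 0.05 in edgeR's quasi-likelihood test. ITGB2 in N_28 (1.12) is the 1 filled point, SERPING1 lies lowest in N_30 (-1.24), and CLU, C1QBP, C5 and CFD lie near 0 in both.

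Acute phase plasma proteins, the class of liver products to which C3 belongs, fell in N_28 in 4 of the 8 that could be tested, and 6 of the 8 were higher in N_30 than in N_28. Of 22 listed genes 8 were tested, and 11 had at most 3 counts in every library, among them CRP, HP and SAA1. In N_28 against control 0 rose and 4 fell (50% of the 8, against 10.2% of all tested genes). In N_30 against control 0 passed by edgeR, against 0.866% of all tested genes, and 0 passed by DESeq2. With the replicate block 2 passed (CP and FGG), against 424 of all 15019 tested genes. An unadjusted p under 0.05 was held by 3 in edgeR's test, and the share of all genes at that level was not computed. In N_30 against N_28 6 were higher and 0 lower (75%, against 18.3%). LCN2, among the 6, passed the filter on low counts only through N_30 (0.490 to 0.604 CPM, against at most 0.391 CPM in control). SERPINA1 passed it without any N_28 library (at most 0.193 CPM there). The entry of these genes favours higher values in N_30, so the share is a description. The median log2 fold change of the 8 was 0.47 in N_30 and -1.35 in N_28.

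The fibrinogen gamma chain gene FGG stood at 9.93, 6.69 and 5.88 CPM in N_30, at 1.73, 1.87 and 0.873 CPM in N_28, and at 4.70, 5.26 and 3.59 CPM in control. It fell in N_28 with a log2 fold change of -1.61 (SE 0.283, adjusted p = 0.00218), and N_30 was above N_28 by 2.34 (SE 0.271, adjusted p = 5.07e-05). The copper carrier ceruloplasmin (CP) stood at 35.8, 24.9 and 19.2 CPM in N_30, at 5.73, 5.11 and 6.42 CPM in N_28, and at 17.1, 13.2 and 6.46 CPM in control. N_30 was above N_28 by 2.19 (SE 0.293, adjusted p = 0.000163). Its fall in N_28 (-1.08, adjusted p = 0.0385) was lost in 7 of 14 alternatives, by DESeq2 and without control replicate 1 or 2, any 1 of the N_28 libraries or N_30 replicate 2. The fibrinogen alpha chain FGA fell in N_28 (-1.89, adjusted p = 0.000902) and was higher in N_30 than in N_28 (1.76, adjusted p = 0.00112).

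SERPINA1, the protease inhibitor alpha-1 antitrypsin, which is also on the hepatocyte list, fell in N_28 (-2.84, adjusted p = 0.0224) from a low level. It had 83 counts over the N_30 libraries and 6 over the N_28 libraries, a ratio of 14.5 with a 95% counting interval of 6.39 to 40.7. The fall in N_28 was lost in 4 of 13 alternatives, without control replicate 1 or 3 or N_28 replicate 2 or 3. The iron-siderophore binder LCN2 had 33 counts over N_30 and 5 over N_28, a ratio of 6.93 (2.69 to 22.7). FGB, the fibrinogen beta chain, differed less than FGA and FGG, by 0.48 between N_30 and N_28 (adjusted p = 0.0408), and lost that call in 6 of 14 alternatives, by DESeq2 and without any 1 of the N_30 libraries or N_28 replicate 1 or 2.

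Cytokines, receptors and transcription factors that act on complement genes did not all move with C3. Of 34 listed genes 28 were tested. In N_28 against control 8 rose and 3 fell (39.3%, against 10.2% of all tested genes). In N_30 against control 0 passed by edgeR, against 0.866% of all tested genes. By DESeq2 1 passed (IRF1), against 256 of all genes. With the replicate block 4 passed (IRF1, CEBPB, LIF and OSMR), against 424 of all 15019 tested genes. An unadjusted p under 0.05 was held by 10 in edgeR's test, and the share of all genes at that level was not computed. In N_30 against N_28 4 were higher and 2 lower (21.4%, against 18.3%). The median log2 fold change was 0.11 in N_30 and 0.12 in N_28.

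Among genes of the same order as C3 was IL1R1, the signalling receptor of IL-1. It stood at 5.66, 4.38 and 5.57 CPM in N_30, at 2.36, 1.26 and 1.35 CPM in N_28, and at 3.57, 4.40 and 3.23 CPM in control. It fell in N_28 (-1.16, SE 0.234, adjusted p = 0.00575) and was higher in N_30 than in N_28 (1.64, SE 0.227, adjusted p = 0.000217). NFKBIZ, a nuclear cofactor of NF-kB that IL-1 induces, fell in N_28 (-0.46, adjusted p = 0.0271), a call lost in 4 of 14 alternatives, without control replicate 1 or 3 or N_28 replicate 1 or 2. It was higher in N_30 than in N_28 (0.71, adjusted p = 0.00105). The kinase JAK1, which acts below the IL-6 and interferon receptors, fell in N_28 (-0.27, adjusted p = 0.00487) and was higher in N_30 than in N_28 by 0.30 (adjusted p = 0.00171). IL6 itself had 47 counts over N_30 and 6 over N_28, a ratio of 8.22 with a 95% counting interval of 3.51 to 23.5. It passed the filter on low counts without any N_28 library (at most 0.110 CPM there). Its entry thus favours higher values in N_30, and the ratio is a description.

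Others had the reverse order or rose in N_28. IL6R, the binding chain of the IL-6 receptor, stood at 47.4, 57.2 and 51.6 CPM in N_30, at 71.9, 71.1 and 64.2 CPM in N_28, and at 47.4, 50.8 and 48.3 CPM in control. It rose in N_28 (0.50, SE 0.0739, adjusted p = 0.000662) and was lower in N_30 than in N_28 (-0.41, SE 0.0738, adjusted p = 0.00177). IRF1, an interferon-induced transcription factor, stood at 17.5, 24.7 and 21.2 CPM in N_30, at 23.1, 22.8 and 23.4 CPM in N_28, and at 15.9, 15.8 and 14.4 CPM in control. It rose in N_28 (0.59, SE 0.109, adjusted p = 0.00327), and in N_30 its value was 0.47 (SE 0.11, adjusted p = 0.0698). The NF-kB subunits RELB (0.74) and NFKB2 (0.61), the inhibitor NFKBIA (0.51), the feedback inhibitor SOCS3 (0.38), the signalling chain IL6ST (0.27) and the TNF receptor TNFRSF1A (0.34) also rose in N_28, where C3 was lower. In N_30, where C3 was higher, their values were also above 0 and not called, at 0.29, 0.41, 0.24, 0.12, 0.11 and 0.15 in the same order. Of these genes only RELB was called between N_30 and N_28. The N_28 calls of NFKB2, NFKBIA, SOCS3, IL6ST and TNFRSF1A were each lost without control replicate 1 and without N_28 replicate 1. Those of NFKB2 and IL6ST were also lost without control replicate 3, that of TNFRSF1A without control replicate 2, and those of IL6ST and TNFRSF1A without N_28 replicate 2 or 3.

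**Figure D4:**
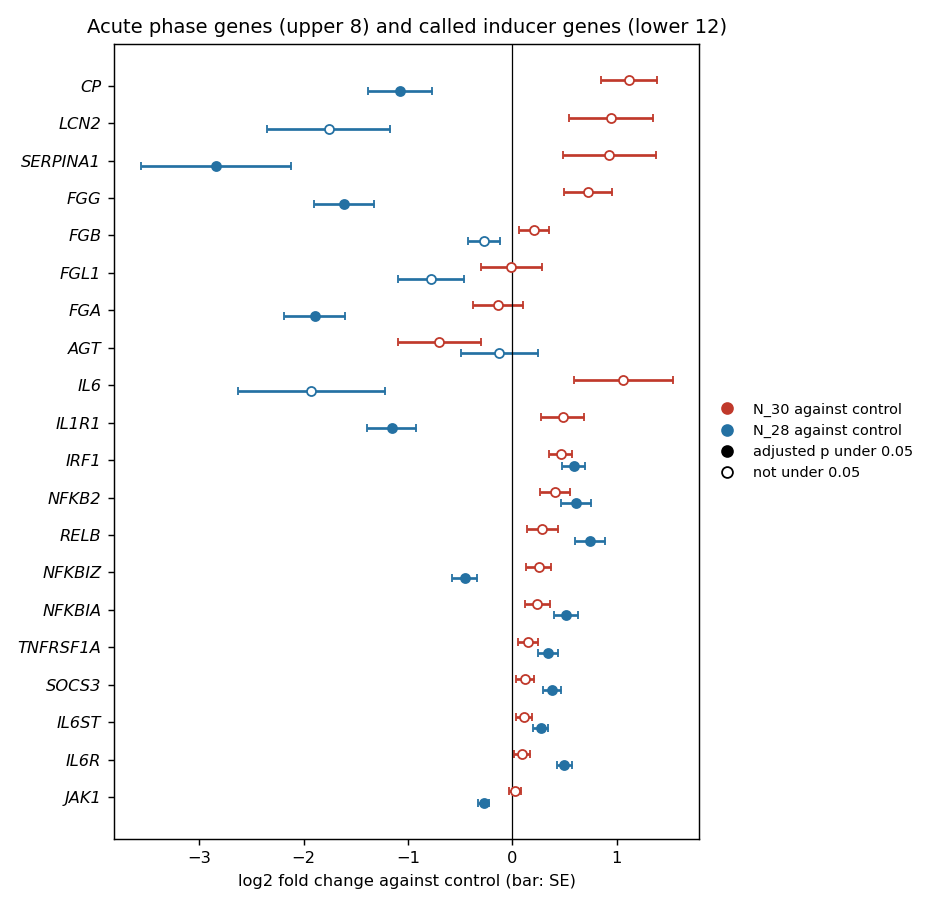
Log2 fold change against control, with SE bars, of the 8 tested acute phase genes and of the 12 inducer genes called in any comparison, for N_30 and N_28, with filled points for an adjusted p under 0.05 in edgeR's quasi-likelihood test. CP, SERPINA1, FGG and FGA are filled below 0 in N_28, while IRF1, NFKB2, RELB and IL6R are filled above 0 in N_28.

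Between N_30 and N_28, the tested neighbours of C3, C4BPA, C1R and C1S differed less than these genes themselves. Within 100000 bases of a start, 31 neighbours were tested. In N_30 against control 0 passed by edgeR, against 0.866% of all tested genes. An unadjusted p under 0.05 was held by 4 in that test, and the share of all genes at that level was not computed. In N_28 against control 1 rose and 3 fell (12.9%, against 10.2% of all tested genes), and in N_30 against N_28 5 were higher and 4 lower (29%, against 18.3%). GPR108, which starts 7041 bases from C3, was higher in N_30 than in N_28 by 0.27 (adjusted p = 0.0219), where C3 differed by 2.89. Near C4BPA, C1orf116 fell in N_28 (-0.89, adjusted p = 0.000217), about as far as C1S (-0.88). The glycolytic regulator PFKFB2 also fell in N_28, by less (-0.44, adjusted p = 0.00485). In N_30 against control C1orf116 was at -0.41 (adjusted p = 0.128 by edgeR) and PFKFB2 at -0.05 (adjusted p = 0.888). Both were higher in N_30 than in N_28, by 0.48 and 0.39, where C4BPA differed by 2.92. Near C1R and C1S, the peroxisomal import receptor PEX5 fell in N_28 (-0.20) and was higher in N_30 than in N_28 by 0.24, while the enolase ENO2 was lower (-0.32). Near CFB, NELFE rose in N_28 (0.20), and ZBTB12 (-0.46) and the methyltransferase EHMT2 (-0.30) were lower in N_30 than in N_28. FBXO3 near CD59 was lower in N_30 than in N_28 (-0.26). CD46 and CD55 had no tested neighbour.

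**Figure D5:**
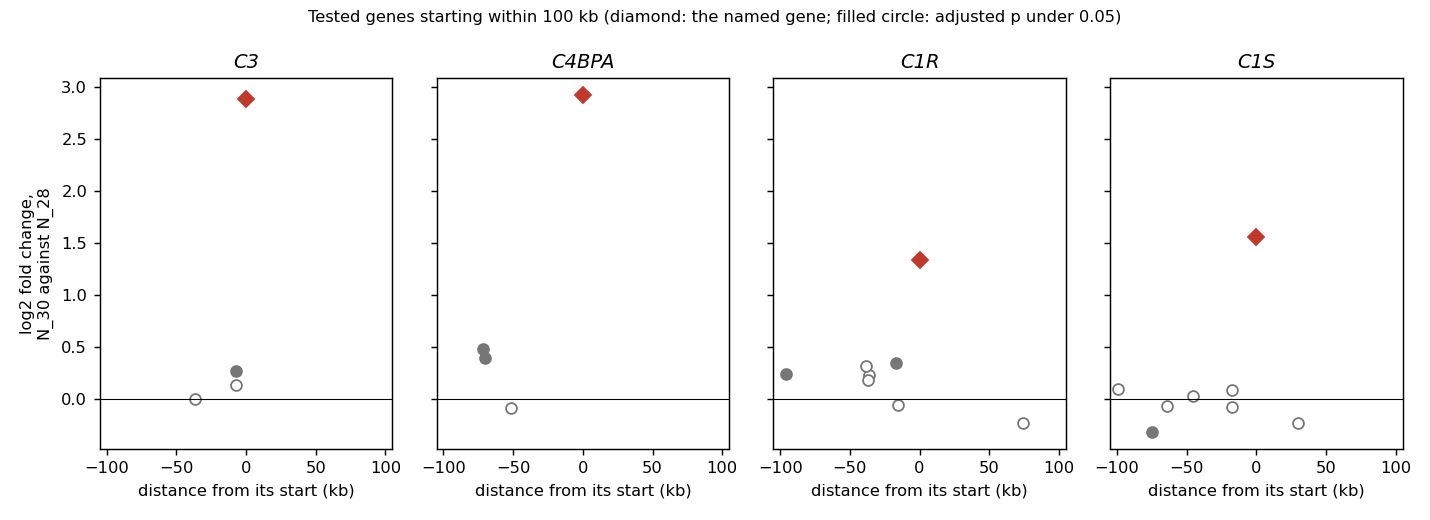
Log2 fold change of N_30 against N_28 of the tested genes that start within 100 kb of C3, C4BPA, C1R and C1S, by distance from the start in kb, with a diamond for the complement gene itself and filled circles for neighbours with an adjusted p under 0.05. Neighbours stay between -0.5 and 0.5, while the complement genes lie at 1.33 to 2.92.

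The pattern of C3 across the 9 libraries was shared closely by SYNPO, CREB3, TTC19 and CRYBG1, 4 of the 5 closest out of 10676 genes that averaged 5 CPM or more. The measure was the Pearson correlation of log2 CPM with C3, which was 0.988 for both SYNPO and CREB3, as a description over libraries that fall into 3 groups. SYNPO, an actin-associated protein, averaged 114 CPM in N_30, 41.4 CPM in N_28 and 62.0 CPM in control. CREB3, a membrane-bound transcription factor, averaged 50.0 CPM in N_30, 38.7 CPM in N_28 and 43.1 CPM in control, a much smaller range than that of C3. CRYBG1 averaged 20.5 CPM in N_30, 9.20 CPM in N_28 and 13.8 CPM in control. TTC19, an assembly factor of respiratory complex III, averaged 43.2 CPM in N_30, 31.9 CPM in N_28 and 35.6 CPM in control.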

How the data were processed

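Gene counts of 9 RNA sequencing libraries were used as the authors deposited them, raw whole-number counts with no normalization. The aligner, counter, annotation and strand setting were not stated in any label or header at hand, so reads of overlapping genes and near-identical copies are uncertain. Per the submitters' processing notes the build was mm8, a mouse genome, but the rows carry human Ensembl identifiers. Symbols came from a gene name table (56434 rows) and GENCODE 29 (434), which left 3580 rows unnamed.

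Counts were filtered (edgeR filterByExpr, minimum count 10), scaled by TMM and fitted with edgeR 4.0.16 (R 4.3.3) by quasi-likelihood, all 9 libraries in 3 groups. P-values were adjusted over all 15019 tested genes and called under 0.05. Alternatives were DESeq2 1.42.0, median-of-ratios factors, no filter, a replicate block, only the compared groups, a prior count of 2 and each library left out. The scripts were tested on simulated counts. Libraries of one number in N_30 and control deviated together (correlations of 0.122, 0.169 and 0.306 for numbers 1, 2 and 3). Pairs of one number with N_28 ran from -0.0588 to 0.235. Libraries of different numbers were not compared in this way. For the same-number ratios and the replicate block, these numbers were taken to pair the libraries, a reading that rests on the values alone. The main fit, which gave the adjusted p-values unless stated, had no term for the pairing. Replicates differed by more than sampling noise (chi-square per gene of 3.57 to 12.4). Intervals cover counting error only.

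The complement genes, the other lists and their tests were chosen with earlier results of these data known. Named were OPA1, the 9 genes, other complement genes that were called or averaged 5 CPM or more in control, the 6 called genes with the lowest adjusted p in the inducer and acute phase lists, called neighbours within 100000 bases and the 5 genes most like C3. Some genes that belong to these lists or to this rule are not reported here and are not counted in the lists. TF, AFP, COL1A1, COL1A2, COL3A1, PECAM1, CEBPB, LIF, OSMR, the other called inducers and SERPING1 were named after their values were seen.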

Additional observations from a re-analysis of the deposited data

Results flagged for a closer look

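The knock-down sets differed from each other in their change against control, which the test of N_30 against N_28 addresses (edgeR's quasi-likelihood test, log2 scale). Higher in N_30 were C1RL (0.34) of the complement system, FGG (2.34), CP (2.19), FGA (1.76), SERPINA1 (3.77), LCN2 (2.71) and FGB (0.48) of the acute phase genes, and IL6 (2.99), IL1R1 (1.64), NFKBIZ (0.71) and JAK1 (0.30) of the inducers. Lower in N_30 were COLEC11 (-2.38), RELB (-0.45) and IL6R (-0.41). COLEC11 passed the filter on low counts only through N_28 and LCN2 only through N_30, so their entry favoured these directions. IL6 and SERPINA1 passed it without any N_28 library, so their entry favoured higher values in N_30. The values of these genes are a description. The call of RELB was lost in 6 of 14 alternatives, without control replicate 1, any 1 of the N_28 libraries or N_30 replicate 1 or 3. Of the cell type markers, TF (3.46) and COL1A1 (1.31) were higher in N_30. Of the neighbours of complement genes, GPR108 (0.27), C1orf116 (0.48), PFKFB2 (0.39) and PEX5 (0.24) were higher and ZBTB12 (-0.46), EHMT2 (-0.30), ENO2 (-0.32) and FBXO3 (-0.26) lower in N_30. Of the complement genes chosen for this pattern, C3, C1S, C1R, C4BPA and CFI had all N_30 libraries above the control mean and all N_28 libraries below it. The libraries of CFB, CD46, CD55 and CD59 were not split in this way. The difference between N_30 and N_28 was not tested independently of that choice, and it is given as a description. The mean of N_30 exceeded that of N_28 by 86.1 CPM for C3, 11.2 CPM for C1S, 3.14 CPM for C1R, 3.03 CPM for C4BPA and 0.521 CPM for CFI.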

How the results depend on the processing

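The fold changes of the 7 tested complement genes kept their direction wherever they were called, under all alternatives run, with C3 at 1.70 to 1.95 in N_30 and -1.19 to -0.92 in N_28. Counts of calls moved more. In N_30 against control, all calls went from 130 to 256 by DESeq2, to 523 without the filter on low counts and to 424 with the replicate block. The 9 genes went from 1 to 2, 3 and 3 in the same order, inducers from 0 to 1, 5 and 4, acute phase genes from 0 to 2 with no filter and 2 with the block, and other complement genes from 0 to 1 without the filter and 1 with the block. In N_28 against control, other complement genes went from 1 to 0 by DESeq2, and the 9 genes from 3 to 6 without the filter and to 5 with the block. In N_30 against N_28, other complement genes went from 2 to 1 by DESeq2, and inducers from 6 to 13 both without the filter and with the replicate block. No called value reversed.

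Without 1 library, all calls ran from 58 to 180 in N_30 (lowest without N_30 replicate 2), from 967 to 1712 in N_28 (lowest without N_28 replicate 1) and from 1850 to 2919 in N_30 against N_28. In the same comparisons, the 9 genes ran from 1 to 2, 2 to 4 and 4 to 7, other complement genes were 0 throughout, 0 to 1 and 1 to 2, inducers from 0 to 3, 5 to 11 and 5 to 8, and acute phase genes from 0 to 1, 2 to 4 and 5 to 6. The cause of these shifts was not tested. Depth limits CFB, CFI and the genes named by their counts.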
